A study of Rattus norvegicus with 64 samples.

Results

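Bladder walls rebuilt in rats with a bladder acellular matrix (BAM) that had been seeded with adipose stromal cells (ASCs) were compared, 30 days after surgery, with walls rebuilt with the same matrix carrying no cells. The comparison rested on the 8 arrays labelled BAM_ADSCs_30d and the 8 labelled BAM_30d, which were 16 of the 64 arrays of the series, and it was made across all genes. All animals were male Wistar rats that had undergone hemicystectomy and augmentation of the bladder with a graft of about 1 cm2. ASCs came from the retroperitoneal fat of male rats of the same strain aged 10 weeks, were grown to the third passage and are called ADSCs in the labels. Donors and recipients were syngeneic, and RNA of seeded and of host cells was not separated. The age of the recipients is not given in the sources used here. The labels give 10 rats to a group, of which 8 have an array. RNA was taken from the reconstructed wall and hybridized to 1-color Agilent arrays, 1 array a rat, and the same labels give further groups at 7, 90 and 180 days.

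Each probe level below is a log2 signal from which the 75th percentile over the same array was subtracted. A level of 0 is therefore a bright probe, and levels of different probes were set against each other only for nearness to saturation. A log2 difference is the mean of the ASC-seeded arrays minus the mean of the BAM-only arrays. A differentially expressed gene (DEG) had a Benjamini-Hochberg adjusted p below 0.01 in limma and a fold change over 1.5. Calls are those of the limma fit of all 64 arrays unless another fit is named. A gene with several probes is given by its probe of highest mean level. For the DEGs Spdef, Foxa1, Lgals4 and Cyfip2 the second probe had the same sign and was not called.

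The bladder is lined by urothelium, a stratified epithelium whose cells are sealed by claudins and other junction proteins and whose surface carries uroplakins. Beneath it lie a vascular connective tissue and the smooth muscle of the detrusor. An implanted acellular matrix is repopulated from the margins of the host bladder, first by leukocytes and fibroblasts, and its surface is covered by epithelium that grows in from the edge. RNA of the whole wall therefore carries messages of all these cells at once, and in such RNA fewer cells of a type and less RNA per cell cannot be told apart.

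Several arrays stood apart and bear on the results. On ASC-seeded replicates 1 and 2, 95.5% and 84.8% of the gene probes were well above background, against 69.2% to 74.4% on the other 14 arrays. The 25th percentile of the levels was -3.49 and -5.25 on these arrays, against -6.55 to -5.74 on the others, so dim probes were bright there. Genes of the accessory sex glands, which are not bladder tissue, were bright on several ASC-seeded arrays. Sbp, a prostatic spermine-binding protein, had levels of 5.67, 5.47 and 5.23 on ASC-seeded replicates 4, 5 and 6, and of -4.92 to -2.46 on the other 13 arrays. Pbsn, the prostatic secretory protein probasin, had levels of 0.28, 2.24 and -1.20 on those 3 arrays, of -1.83 and -4.15 on ASC-seeded replicates 1 and 2, and of -5.72 or less on the rest. Svs5, also of these glands, was at 0.32, -2.15 and -3.62 on ASC-seeded replicates 1, 2 and 6, and at -6.62 or less on the rest. Svs4 was at -2.10 on ASC-seeded replicate 7, against -5.23 or less on the BAM-only arrays. Leaving out replicates 4, 5 and 6 therefore did not remove every array with bright accessory gland genes. Of 9 accessory gland genes on the array only Sbp entered the test, and 6 ASC-seeded arrays had a mean over the 9 genes above all BAM-only arrays (-7.90 to -3.91 against -7.80 to -6.99). The part of these arrays in the differences was not tested beyond leaving them out, so counts are given with all arrays, without replicates 1 and 2, and without replicates 4, 5 and 6 of the ASC-seeded group. Each group was hybridized on a slide of its own, so slide and graft cannot be told apart. The defining markers looked at for urothelium (Upk1a, Upk1b, Upk2, Upk3a, Krt5 and Krt20) and smooth muscle (Myh11, Acta2, Cnn1, Des and Actg2) were well above background on all 16 arrays.

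**Figure D1:**
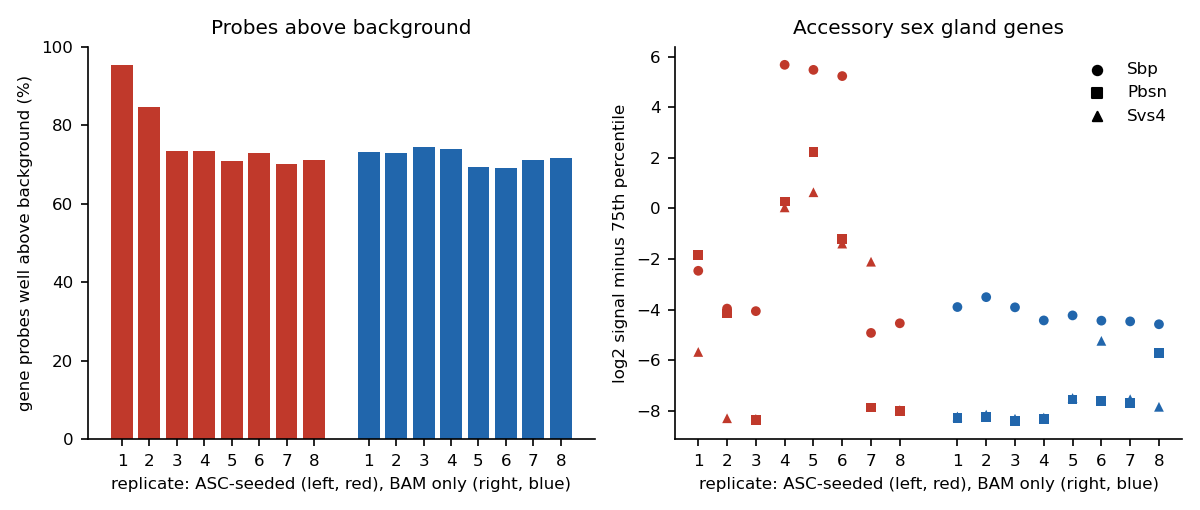
Percent of gene probes well above background (left) and level of 3 accessory sex gland genes (right, log2 level relative to the 75th percentile) on each array of day 30, with replicates 1 to 8 of BAM seeded with ASCs in red and of BAM only in blue. ASC-seeded replicates 1 and 2 had 95.5% and 84.8% of the probes above background, and Sbp stood at 5.23 to 5.67 on ASC-seeded replicates 4, 5 and 6.

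Of 20543 probes tested, 504 (2.45%) were DEGs, of which 336 (1.64%) were higher and 168 (0.818%) lower with ASCs. Over the 11435 named genes these were 198 higher (1.73%) and 113 lower (0.988%). Among the lists described below, cholesterol synthesis had 10 and urothelium 3 higher DEGs, and olfactory and vomeronasal receptors had 8 lower DEGs, where no other list had more than 2. The median log2 difference of all probes was 0.02. Among the 336 higher DEGs 179 passed a 2-fold change, and among the 168 lower DEGs 45 did. In 131 of the higher and 55 of the lower DEGs the lowest array of one group stood above the highest of the other. Over all named genes, separated groups were found for 191 higher (1.67%) and 165 lower genes (1.44%). At an unadjusted p under 0.05, 1622 genes were higher (14.2%) and 1586 lower (13.9%).

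The number of DEGs rested on the arrays that entered. Without ASC-seeded replicates 1 and 2, 245 probes were DEGs, and 221 of the 504 were among them. All 504 kept their sign, which is largely set by their choice as DEGs with all arrays. By gene, 95 were then higher (0.831%) and 64 lower (0.56%). Without ASC-seeded replicates 4, 5 and 6, 264 genes were higher (2.31%) and 121 lower (1.06%), and 388 of the 504 probes remained DEGs. Leaving out single arrays gave 269 DEGs without ASC-seeded replicate 2, 295 without BAM-only replicate 4 and 315 without BAM-only replicate 2. A fit of the 16 arrays of day 30 alone called 269 genes higher (2.35%) and 219 lower (1.92%). The balance of directions also depended on the scaling. With quantile normalization 231 probes were higher and 208 lower, and with the 75th percentile taken over detected probes 437 were higher and 109 lower.

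**Figure D2:**
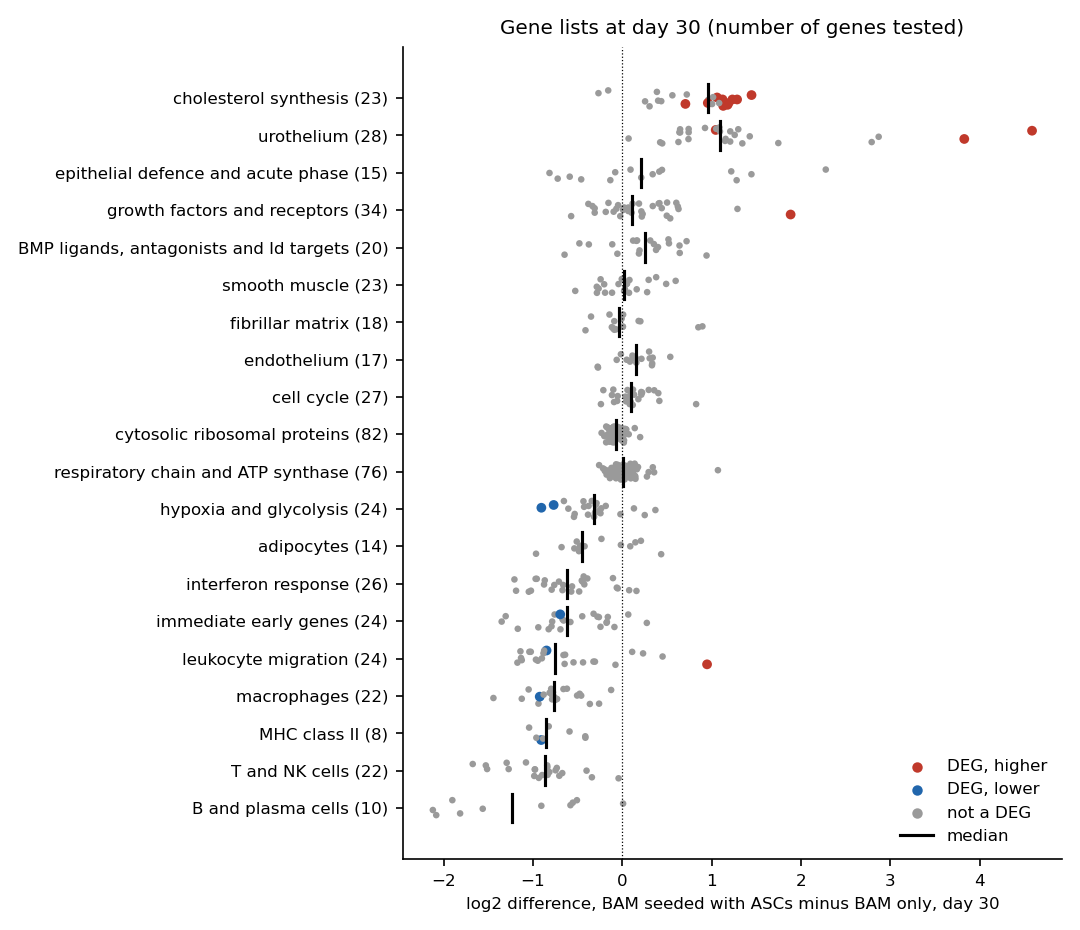
Log2 difference at day 30 (BAM seeded with ASCs minus BAM only) of every tested gene of 20 gene lists, with the median of each list as a bar and DEGs in red (higher) and blue (lower). The cholesterol synthesis list had 10 higher DEGs and a median of 0.96, and the medians of the macrophage, T and NK cell, B and plasma cell, MHC class II and leukocyte migration lists lay between -1.23 and -0.75.

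The largest difference among named genes was that of Cldn3, a claudin of epithelial tight junctions. Its levels ran from -2.0 through a median of -0.35 to 2.22 with ASCs and from -7.81 through -4.35 to -3.25 with BAM only, and the groups did not overlap. The log2 difference was 4.58 ± 0.85 (SE, n = 8 a group), a 24.0-fold change, with an adjusted p of 3.21e-04 in limma. The probe was well above background on only 6 of the 8 BAM-only arrays, so the lower level is partly set by the background. Cldn3 was also a DEG without replicates 1 and 2 and without replicates 4, 5 and 6. ASC-seeded replicates 4 and 5, on which Sbp was bright, had its highest levels (1.48 and 2.22). The log2 difference was 3.87 without replicates 4, 5 and 6. Without replicates 1, 2, 4, 5 and 6 it was 3.90 and was not called (adjusted p = 0.0488, limma).

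Tspan1, a tetraspanin of epithelial cells, was at 0.17, 2.75 and 4.22 (lowest, median and highest) with ASCs and at -3.72, -1.23 and 0.27 with BAM only. Its log2 difference was 3.83 ± 0.86 (adjusted p = 0.00228, limma), and only the lowest ASC-seeded array lay within the BAM-only range. Without ASC-seeded replicates 4, 5 and 6, on which Sbp was bright, the difference was 3.48 and the adjusted p 0.0168 (limma). The same calls were lost for Spdef, an Ets transcription factor of secretory epithelia, and for Lrrc26, an auxiliary subunit of potassium channels in secretory epithelia. Spdef had levels of -1.70, 0.61 and 1.33 with ASCs and of -2.48, -1.24 and -0.68 with BAM only, and Lrrc26 had levels of -2.65, -1.98 and -0.23 against -4.27, -3.58 and -2.28. Their log2 differences were 1.77 and 1.70, and in both genes the groups overlapped.

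Cd24, a surface glycoprotein of epithelial and other cells, was higher on all 8 ASC-seeded arrays than on any BAM-only array, with levels of 2.44, 3.53 and 4.12 against 1.01, 1.98 and 2.44. Mall, a membrane raft protein of the MAL family, had levels of 0.42, 1.38 and 2.79 against -0.74, -0.09 and 0.83, with overlap. The log2 differences were 1.61 and 1.60. Foxa1, a transcription factor of urothelial differentiation, was the remaining called member of the urothelial list, with a log2 difference of 1.05 and no overlap between the groups. It was not called without replicates 1 and 2 (adjusted p = 0.0132, limma).

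The urothelial list as a whole had 28 tested genes, of which 3 were higher DEGs and none lower. All 28 had positive log2 differences, 18 at an unadjusted p under 0.05, with a median of 1.09 where the median of all named genes was 0.01. The mean level over the list ran from 1.47 to 2.43 on the ASC-seeded arrays (median 1.83) and from -0.52 to 1.35 on the BAM-only arrays (median 0.65), without overlap. The list median was 1.05 without replicates 1 and 2 and 1.20 without replicates 4, 5 and 6, with 2 DEGs in each case, and the fit of the 16 arrays called 9 members. Basal keratins had the next largest values. Krt17 and Krt14, which are made by basal and regenerating epithelium, had log2 differences of 2.87 and 2.79, and Krt5, the basal urothelial keratin, had 1.75. None of these keratins was a DEG. The genes of the superficial layer had smaller values that did not pass the test either. These were 0.64 for Upk1a, 0.65 for Upk1b, 0.74 for Upk2, 0.42 for Upk3a and 0.74 for Krt20. With ASCs Upk1b was at 5.09 to 5.46 and Upk3a at 5.28 to 5.54. The C1qa probe, saturated on 3 BAM-only arrays, reached 5.32 there, so the differences of Upk1b and Upk3a may be narrowed by saturation. The value of Tp63, the transcription factor of basal cells, was 0.07.

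**Figure D3:**
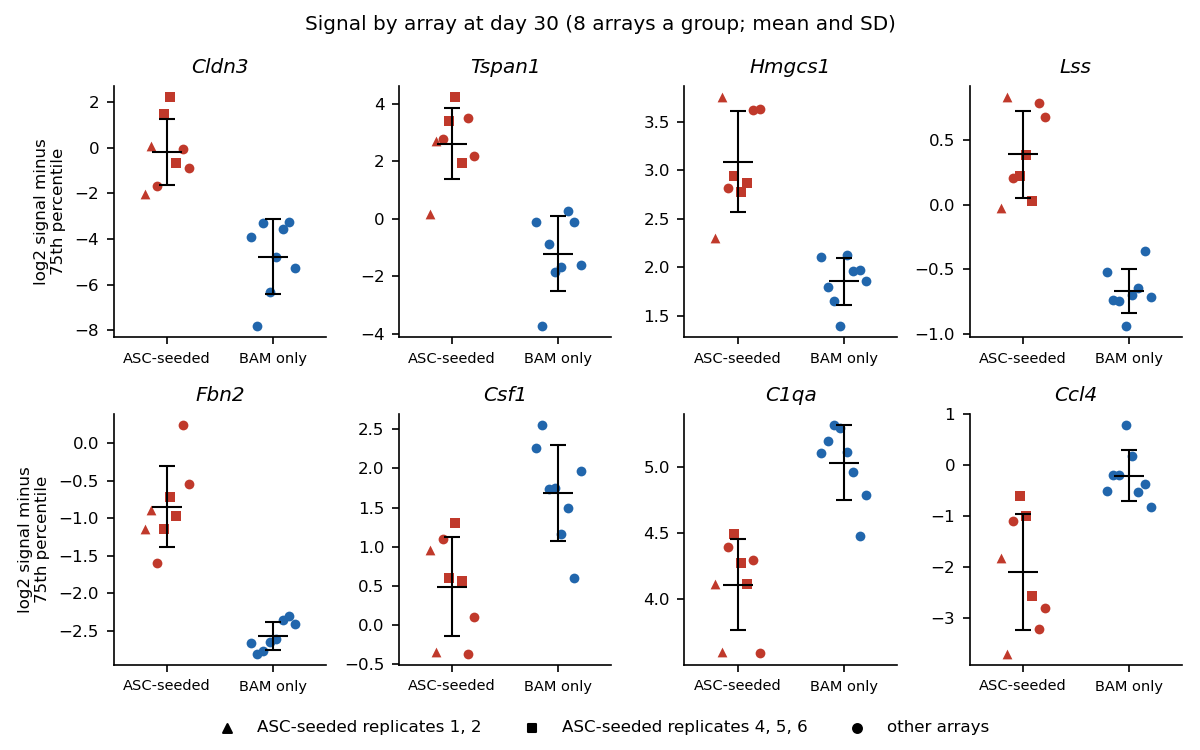
Level of 8 genes on each array of day 30 (log2, relative to the 75th percentile), with ASC-seeded arrays in red, BAM-only arrays in blue, and bars for the mean and SD of 8 arrays. The groups were separated for Cldn3, Hmgcs1, Lss and Fbn2, and overlapped for Tspan1, Csf1, C1qa and Ccl4.

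A set of genes of mucus-producing and secretory epithelia was also higher, and is described here although it lies outside the lists and was chosen after its values were seen. St6galnac1, which adds sialic acid to mucin-type glycans, was at -5.44, -4.34 and -3.38 with ASCs and at -8.36, -7.04 and -5.48 with BAM only, without overlap (log2 difference 2.51). Clca1, a secreted protein of goblet cell mucus, was at -4.32, -1.72 and 0.93 against -7.78, -5.04 and -3.66, with overlap and a log2 difference of 3.48. S100g, the vitamin D-dependent calcium-binding protein calbindin-D9k, had a log2 difference of 3.87, and its levels overlapped between the groups (-3.73 to 1.63 against -7.42 to -0.98). Further DEGs of secretory epithelia are given by their difference alone. Aqp5, a water channel of glandular cells, had a log2 difference of 2.57, and Fam3b, a secreted protein of pancreatic islets and gut, had 3.00. On the BAM-only arrays the probe was well above background on 2 of 8 for St6galnac1 and Aqp5, on 4 for Fam3b and on 5 for Clca1 and S100g, so their BAM-only levels and the sizes of these differences are partly set by the background. Lgals4, a galectin of digestive epithelia, had 2.64, and Gkn1, a protein of gastric mucus cells, had 2.18, but neither Lgals4 nor Gkn1 was called without replicates 1 and 2. The log2 difference of Agr2, a chaperone for mucins, was 1.44 and did not pass (adjusted p = 0.0118, limma).

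For 3 genes the probe was well above background on all 8 ASC-seeded arrays and on no BAM-only array, so a lower bound is given. Cyp3a9, a steroid- and drug-oxidizing cytochrome P450, was at least 5.17-fold higher with ASCs and was the only DEG among 24 genes of the cytochrome P450 and glucuronidation list (median -0.10). Scgb1c1, a secretoglobin, was at least 3.76-fold and Ccdc68, a centrosomal coiled-coil protein, at least 3.55-fold higher. All 3 were chosen among the DEGs by this background pattern and entered the test only through the ASC-seeded group. That their groups did not overlap is largely set by this choice. They were also called without replicates 1 and 2. In the opposite direction Ctsr, a cathepsin, was at least 3.09-fold lower.

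Other genes of epithelial defence were not called. Of 15 tested members of that list none was a DEG by limma or by the unmoderated analysis of variance, 5 had an unadjusted p under 0.05 with a higher level and 1 with a lower, and the median was 0.21, or 0.05 without replicates 1 and 2. Duox2, a hydrogen peroxide-producing oxidase of epithelial surfaces, had levels of -2.02, -0.72 and 4.89 with ASCs and of -2.43, -1.47 and -0.46 with BAM only (log2 difference 2.28, adjusted p = 0.0194, limma). Wfdc2, a secreted protease inhibitor, had a log2 difference of 1.22 with no overlap between the groups (adjusted p = 0.011, limma). Of 32 keratin and keratin-associated genes tested, 11 had a higher and 3 a lower level at an unadjusted p under 0.05 and none was a DEG by either test. The median of 0.29 was 0.03 without replicates 1 and 2, on which dim probes were bright, and -0.11 without all 5 arrays that stood apart. Krtap10-10l1 and Krtap10l1, both hair keratin-associated genes, were at -0.50 and -0.65. The list of junction, corticoid and sodium transport genes had no DEG among 18 by either test, with 4 higher and 3 lower at an unadjusted p under 0.05 and a median of 0.14 (-0.30 without all 5 arrays that stood apart). In it Tsc22d3, a glucocorticoid-induced gene, had a log2 difference of -0.71 and Nr3c1, the glucocorticoid receptor, had -0.39.

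Enzymes of cholesterol synthesis formed the list with the most DEGs. Cholesterol is made from acetyl-CoA through mevalonate, isoprenoid units, squalene and lanosterol, and cells adjust these enzymes together to the sterol content of their membranes. Of 23 tested genes 10 were higher DEGs and none was lower, against 1.73% of all genes. The 10 were Hmgcs1, Mvd, Idi1, Fdps, Lss, Cyp51, Tm7sf2, Msmo1, Hsd17b7 and Sc5d, which span the pathway from its entry to its last steps. Of the 23 genes 21 had positive differences, all at an unadjusted p under 0.05, and the list median was 0.96. The groups did not overlap in 9 genes. The mean level of the list was -0.41 to 0.57 on the ASC-seeded arrays and -1.18 to -0.70 on the BAM-only arrays, again without overlap. Without replicates 1 and 2 the list had 8 DEGs and a median of 0.95, and without replicates 4, 5 and 6 it had 10 DEGs and a median of 1.12.

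Hmgcs1, the synthase that makes the precursor of mevalonate, was at 2.30, 2.90 and 3.75 with ASCs and at 1.40, 1.91 and 2.13 with BAM only. Lss, lanosterol synthase, was at -0.02, 0.30 and 0.83 against -0.94, -0.71 and -0.36. In both genes every ASC-seeded array lay above every BAM-only array. The log2 differences were 1.23 ± 0.22 for Hmgcs1 (adjusted p = 2.07e-04, limma) and 1.06 ± 0.16 for Lss (adjusted p = 2.80e-05). Fdps, farnesyl diphosphate synthase, was at 0.77, 1.70 and 2.45 against 0.28, 0.60 and 0.73, and Sc5d, a sterol desaturase near the end of the pathway, was at -1.41, -0.90 and -0.14 against -2.78, -2.0 and -1.70. Their log2 differences were 1.19 and 1.28, with separated groups. Tm7sf2, a sterol reductase, had the largest difference of the list, 1.45, with levels of -0.58, -0.01 and 0.64 against -2.07, -1.50 and -0.95.

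Members that did not pass included Sqle, squalene epoxidase, with a log2 difference of 0.96, and Srebf2, the transcription factor of the pathway, with 0.44. Only Insig1, which retains that factor in the endoplasmic reticulum, and Stard4, a sterol carrier, had negative values, of -0.27 and -0.16.

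**Figure D4:**
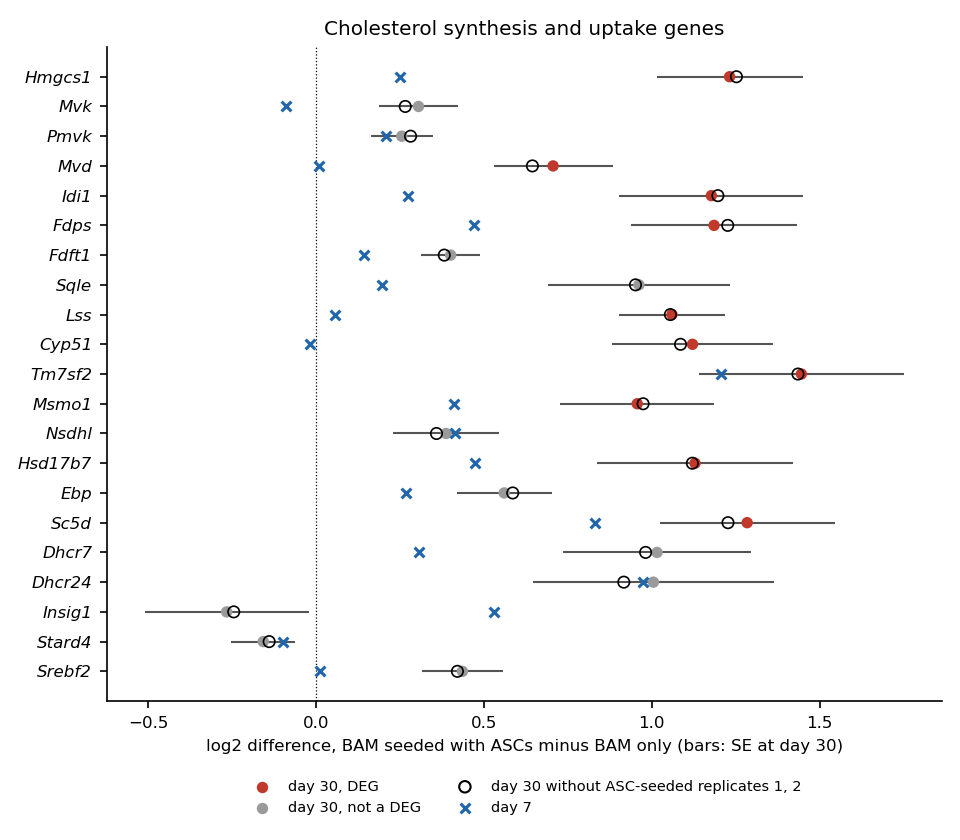
Log2 difference (BAM seeded with ASCs minus BAM only) of 21 cholesterol genes in pathway order, at day 30 with SE bars (filled points, DEGs in red), at day 30 without ASC-seeded replicates 1 and 2 (open circles) and at day 7 (crosses). The day 30 values of 19 of them lay above 0, and leaving out the 2 arrays moved them by less than their SE.

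The 250 bases before the start of the 4 genes of the list with the smallest p are shown because these genes were higher together. They are from RefSeq on build GRCr8, 5′ to 3′ on the strand of the gene, and capitals mark CCAAT or, for the other strand, ATTGG, the letters bound by factor NF-Y.
Lss, chr20:12118231-12118480, minus strand: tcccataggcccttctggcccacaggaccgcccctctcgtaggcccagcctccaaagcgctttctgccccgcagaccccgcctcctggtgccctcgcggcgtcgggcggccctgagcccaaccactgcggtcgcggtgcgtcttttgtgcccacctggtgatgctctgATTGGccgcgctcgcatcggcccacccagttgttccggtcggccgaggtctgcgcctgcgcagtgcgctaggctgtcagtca
Hmgcs1, chr2:53382054-53382303, plus strand: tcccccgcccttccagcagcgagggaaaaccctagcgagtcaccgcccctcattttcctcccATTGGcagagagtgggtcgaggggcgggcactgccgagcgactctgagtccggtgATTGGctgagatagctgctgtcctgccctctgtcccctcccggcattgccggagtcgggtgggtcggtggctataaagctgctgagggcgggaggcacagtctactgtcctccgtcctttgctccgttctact
Sc5d, chr8:51538278-51538527, minus strand: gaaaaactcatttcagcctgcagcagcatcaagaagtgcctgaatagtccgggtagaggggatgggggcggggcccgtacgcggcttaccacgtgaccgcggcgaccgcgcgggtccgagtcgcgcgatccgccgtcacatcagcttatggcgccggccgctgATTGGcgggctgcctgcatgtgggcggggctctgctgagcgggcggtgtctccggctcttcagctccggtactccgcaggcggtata
Fdps, chr2:176804817-176805066, minus strand: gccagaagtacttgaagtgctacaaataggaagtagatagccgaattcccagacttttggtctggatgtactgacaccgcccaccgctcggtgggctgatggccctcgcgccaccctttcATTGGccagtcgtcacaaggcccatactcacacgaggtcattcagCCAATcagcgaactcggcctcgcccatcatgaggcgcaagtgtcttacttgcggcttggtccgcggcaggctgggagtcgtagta
On either strand CCAAT was found in 14 of the 16 promoters of the list that are in the RefSeq table, 9 of them among the 10 called genes, and in 34.2% of all 27457 promoters of the table. The letters TCACNCCAC, a form of the sterol regulatory element, were in none of the 16 and in 1.00% of all. A match of letters is a description and not a binding site, and its absence from this window says nothing of the factor.

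Single genes of extracellular matrix and growth control had large differences, and the lists of such genes held few or no DEGs. Fbn2, described first, lay outside the lists. Fbn2, a fibrillin of elastic microfibrils made mainly in developing tissue, was at -1.60, -0.94 and 0.24 with ASCs and at -2.80, -2.62 and -2.30 with BAM only. The groups were fully separated, and the log2 difference was 1.72 ± 0.34 (adjusted p = 6.59e-04, limma). Eln, the elastin that is laid on those microfibrils, had a log2 difference of 0.85 (adjusted p = 0.042), and Fmod, a collagen-binding proteoglycan, had 0.90 (adjusted p = 0.13). The 18 fibrillar matrix genes tested included no DEG by limma or by unmoderated analysis of variance, 2 were higher at an unadjusted p under 0.05, and the list median was -0.04. Mmp19, a matrix metalloproteinase, was the only DEG among 21 protease and inhibitor genes (median 0.08), at -0.93, with overlapping groups, and was not called without replicates 4, 5 and 6. The log2 difference of Mmp7, a metalloproteinase of epithelial cells, was 1.53 and that of Mmp10 was 1.35, neither passing the test.

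Nrg1, a ligand of the ErbB receptors, was the only DEG of 34 growth factor and receptor genes (median 0.11). Its levels were -4.23, -2.33 and -1.29 with ASCs and -5.27, -4.64 and -2.64 with BAM only, with overlap, and the log2 difference was 1.88. The receptors Erbb2 and Erbb3 had values of 0.63 and 0.54 and were not called. Ajuba, a LIM protein of cell contacts and the Hippo pathway, was the only DEG of 34 genes of the JAK-STAT, PI3K-Akt and Hippo list (median -0.07), at 1.03. Neither gene was called without replicates 1 and 2 (adjusted p = 0.0106 for Nrg1 and 0.0132 for Ajuba, limma). Bmp7, an epithelial bone morphogenetic protein, had a log2 difference of 0.94 (adjusted p = 0.0329), and none of 20 genes of that list was a DEG by either test, with 4 higher and 2 lower at an unadjusted p under 0.05 and a median of 0.25. Id2, an inhibitor of differentiation, had an adjusted p of 0.00694 at -0.48, under the fold threshold.

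Other large higher differences came from genes of mixed function. Padi4, an enzyme that turns protein arginine into citrulline, was at -1.18, -0.10 and 0.85 against -2.89, -1.82 and -0.94, with a log2 difference of 1.69. Ropn1l, a protein of cilia and sperm tails, and Pik3r3, a regulatory subunit of phosphoinositide 3-kinase, had separated groups and log2 differences of 1.53 and 1.44. Bnc1, a zinc finger protein of basal epithelium and mesothelium, had 1.82. Its probe was well above background on 4 of the 8 BAM-only arrays, and it was not called without replicates 1 and 2 (adjusted p = 0.0179, limma). No other of the 4 mesothelial genes tested was a DEG (list median 0.04).

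Genes of leukocytes lay on the lower side with few single calls. All 22 macrophage genes tested had negative differences, 15 at an unadjusted p under 0.05, and the list median was -0.77. The mean level of the list was below that of every BAM-only array on 7 of the 8 ASC-seeded arrays (0.37 to 1.19 against 1.11 to 1.57). C1qa, a chain of complement C1q made by tissue macrophages, was the DEG of this list. It was at 3.59, 4.19 and 4.49 with ASCs and at 4.48, 5.11 and 5.32 with BAM only, a log2 difference of -0.92 (adjusted p = 0.00926, limma), with the highest ASC-seeded array just above the lowest BAM-only one. The probe was saturated on 3 of the BAM-only arrays and on no ASC-seeded array, so the BAM-only levels there are lower bounds. It was not called without replicates 1 and 2 (adjusted p = 0.0433) or without replicates 4, 5 and 6. Csf1, the growth factor on which macrophages depend, was at -0.36, 0.58 and 1.30 against 0.61, 1.74 and 2.55. Its log2 difference was -1.20 and it was called under both exclusions. The call without replicates 1 and 2 was a condition for its place among the genes of largest difference. Csf1 was the only DEG of 21 interleukin, TNF and colony-stimulating factor genes, of which 15 had negative values (median -0.35).

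Lymphocyte and antigen presentation genes had the lowest list medians. All 22 T and NK cell genes tested were negative, with a median of -0.87, and 9 of 10 B and plasma cell genes were, with a median of -1.23. Neither list held a DEG by limma or by unmoderated analysis of variance, with 13 and 6 lower genes at an unadjusted p under 0.05. The fit of the 16 arrays of day 30 alone called 1 T and NK cell gene, Cd4, lower and no B and plasma cell gene. That fit called 2 macrophage, 2 MHC class II and 7 leukocyte migration genes lower, and 1 leukocyte migration gene higher. Nkg7, a protein of cytotoxic granules, had a log2 difference of -1.67 (adjusted p = 0.0153), and Mzb1, a chaperone of antibody-producing cells, had -2.12 (adjusted p = 0.0538). The levels of Cd4, the helper T cell co-receptor, did not overlap between the groups (-2.61 to -1.68 with ASCs against -1.63 to -0.80), with a log2 difference of -0.98. Of 8 MHC class II genes all were negative, and RT1-DMa, which loads peptides on these molecules, was a DEG at -0.91 with separated groups. It was not called without replicates 1 and 2 (adjusted p = 0.0293, limma) or without replicates 4, 5 and 6. Cd69, an early activation antigen of lymphocytes, was among the genes with the largest fall. Its levels were -5.52, -4.19 and -3.34 with ASCs and -3.55, -2.63 and -1.40 with BAM only, and the log2 difference was -1.48, not called without replicates 4, 5 and 6. Cyfip2, a subunit of the actin-regulating WAVE complex that is found in brain and lymphocytes, had separated groups (-2.71 to -1.43 against -1.17 to -0.18) and a log2 difference of -1.16 (adjusted p = 3.02e-05, limma).

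Among genes of leukocyte adhesion and migration 20 of 24 were negative and the median was -0.75. Icam1, the endothelial ligand of leukocyte integrins, was a lower DEG with separated groups (0.38, 1.19 and 1.46 with ASCs, 1.59, 1.81 and 2.54 with BAM only) and a log2 difference of -0.85. F11r, a junctional adhesion molecule of epithelium and endothelium, was a higher DEG at 0.95. Of 42 chemokine and receptor genes 28 were negative, with a median of -0.42. Ccl4, a chemokine for monocytes and T cells, was the only DEG among them. It was at -3.70, -2.19 and -0.60 against -0.82, -0.29 and 0.79, a log2 difference of -1.90, and was not called without replicates 1 and 2 (adjusted p = 0.0383, limma). Chemokines that attract neutrophils had values of the other sign, with 1.40 for Cxcl6 and 0.24 for Cxcl1, and neither passed. The neutrophil list of 13 genes held no DEG by either test, with 2 higher and 1 lower at an unadjusted p under 0.05, and its median of 0.24 became -0.11 with quantile normalization and 0.60 without replicates 4, 5 and 6. S100a9, a calcium-binding protein of neutrophils, had a log2 difference of 1.87 (adjusted p = 0.106), and Trem1, a receptor of neutrophils and monocytes, had -1.19 (adjusted p = 0.0248).

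Interferon-stimulated genes gave 24 negative values of 26, a median of -0.62 and no DEG by either test, with 7 lower at an unadjusted p under 0.05. Psmb8, an immunoproteasome subunit, had -0.88 and Irf1, a transcription factor of the response, had -0.71. Of 24 immediate early genes 22 were negative with a median of -0.62. Klf6, an inducible zinc finger factor, was the DEG among them, at -0.69, and was not called without replicates 1 and 2 (adjusted p = 0.0101, limma). Complement genes had 16 negative values of 20, a median of -0.28, and C1qa as the only DEG. Cd55, which protects cells from complement, had a value of 1.22 that was not called.

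Hypoxia and glycolysis genes had 21 negative values of 24, 15 at an unadjusted p under 0.05, and a median of -0.31. Bnip3, a mitochondrial receptor for autophagy, was at 0.69, 1.42 and 2.05 with ASCs and at 1.38, 2.46 and 2.99 with BAM only, and P4ha1, a subunit of collagen prolyl hydroxylase, was at -1.57, -1.19 and -0.41 against -1.36, -0.24 and 0.14. Both were lower DEGs with overlapping groups (log2 differences of -0.91 and -0.77), and P4ha1 was not called without replicates 4, 5 and 6. Glycolytic enzymes had smaller values, -0.38 for Gapdh, -0.54 for Tpi1 and -0.30 for Pgk1, whose probe was saturated on 5 BAM-only arrays. Outside the list, in genes chosen after their values were seen, Ero1a, an oxidase of the endoplasmic reticulum, and Slc16a3, the lactate exporter, were lower DEGs at -0.77 and -1.08, the latter not without replicates 1 and 2. Eno2, an enolase, was not called at -0.81 by the probe described (adjusted p = 0.0135, limma), but its other probe was a lower DEG.

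Lists of the deeper wall held no DEG by limma or by unmoderated analysis of variance. The 23 smooth muscle genes had 13 positive and 10 negative values, none at an unadjusted p under 0.05, and a median of 0.02, with 0.49 for Kcnmb1, a potassium channel subunit, and 0.60 for Chrm2, a muscarinic receptor. The mean level of the list was 0.23 to 1.32 with ASCs and 0.60 to 1.30 with BAM only. Medians were 0.15 for 17 endothelial, 0.05 for 15 Schwann cell and nerve, -0.05 for 12 stromal surface, -0.08 for 9 mast cell, -0.09 for 14 striated muscle, 0.27 for 7 blood and -0.45 for 14 adipocyte genes. With quantile normalization the median of the Schwann cell and nerve list was -0.22. The adipocyte median was -0.82 without replicates 4, 5 and 6, where Cidea, a lipid droplet protein, was called (log2 difference -1.44, adjusted p = 0.00288, limma), and the striated muscle median was 0.21 over all 20 genes on the array. At an unadjusted p under 0.05 these lists had 6 higher and 8 lower genes in all. Cd44, a hyaluronan receptor, had an adjusted p of 0.0086 (limma) at -0.56, under the fold threshold, and Cidea had -0.97 with all arrays (adjusted p = 0.0298). Of 4 Cd44 probes 1 had the other sign, and none was a DEG. The wound matrix and TGF-beta list had 14 negative values of 21 and a median of -0.23, with 2 higher and 5 lower at an unadjusted p under 0.05. Tgfb1, a growth factor of wound repair, had -0.69 (adjusted p = 0.0137). Lists of basic cell function had no DEG by either test, with medians of -0.07 for 82 ribosomal protein genes, 0.00 for 76 respiratory chain genes, 0.09 for 27 cell cycle genes (0.37 without replicates 4, 5 and 6) and -0.12 for 13 reference genes. At an unadjusted p under 0.05 they held 6 higher and 10 lower genes. Atp5mc1, a subunit of ATP synthase, had separated groups with a difference of only 0.36.

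Developmental signalling lists also held few calls. The Hedgehog panel, which the study had chosen on these samples, is therefore not independent evidence of a direction. It had 1 DEG among 17 genes, which was lower, and a median of 0.51. The median was 0.35 without replicates 1 and 2 and 0.31 with normexp background correction. Of the 17 genes 14 were positive. At an unadjusted p under 0.05, 7 were higher and 1 lower, where 14.2% and 13.9% of all genes were. The mean level of the panel was -1.82 on ASC-seeded replicate 1, -2.76 to -3.65 on the other 7 and -3.92 to -3.35 on the BAM-only arrays. That DEG was Zic2, a zinc finger factor that interacts with Gli proteins, with separated groups (-3.49, -3.23 and -2.35 with ASCs, -2.32, -2.12 and -1.46 with BAM only). Smo, the transducer of the pathway, had 0.51, and its receptor and target Ptch1 had 0.60. No DEG was found by either test among 8 other Hedgehog targets and regulators (median 0.19) or 14 Wnt antagonists and targets (median 0.14, with 0.02 and 0.03 without replicates 1 and 2), each with 1 higher gene at an unadjusted p under 0.05. Frzb, a secreted Wnt antagonist, had 0.68 (adjusted p = 0.0299).

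The lower DEGs also held dim probes of genes that are not known for a role in bladder. Of 163 olfactory and vomeronasal receptor genes tested, among 1263 on the array, 8 were lower DEGs and 1 was higher, with a median of -0.21, or -0.49 with quantile normalization. Over all 1263 genes on the array, whether or not they passed the filter on dim probes, the median was of the other sign, 0.36. Without replicates 1 and 2 there were 10 lower and none higher, and without replicates 4, 5 and 6 there were 2 of each. Or10ag57 had levels of -5.0 to -4.03 with ASCs and -3.56 to -2.52 with BAM only (log2 difference -1.44), and Vom2r35, a pheromone receptor, -3.50 to -3.0 against -2.55 to -2.32 (-0.92). Or5m8 was at -0.88 and Or52e2 at -1.12. Or10ag57 and Or52e2 were not called without replicates 4, 5 and 6. Tmem104, a predicted transmembrane protein, was the most closely grouped of the named lower genes, at -3.03, -2.87 and -2.67 with ASCs and at -1.97, -1.73 and -1.66 with BAM only (log2 difference -1.10 ± 0.13, adjusted p = 5.78e-08, limma). Tm4sf20, a transmembrane protein of the L6 family, also had separated groups (-5.32 to -4.04 against -3.93 to -2.73). Rph3a, a protein of synaptic vesicles, and Spmap2, a protein of sperm, were lower at -1.05 and -1.06, and their groups overlapped through ASC-seeded replicate 1. Spmap2 was not called without replicates 4, 5 and 6.

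The difference between grafts at day 30 was set beside that at day 7, which was measured on 16 other arrays. At day 7, 659 probes were higher (3.21%) and 1229 lower (5.98%) with ASCs. Of the 336 probes higher at day 30, 290 were also positive at day 7, where 37.8% of all probes were positive, and 81 were called higher at both days (24.1% of the day 30 list and 12.3% of the day 7 list). Of the 168 lower probes 148 were negative at day 7 and 56 were called lower at both days (33.3% and 4.56% of the lists). The median day 7 difference of the higher probes was 0.46 and of the lower probes -0.41. The urothelial list had a median of 1.87 and 20 DEGs at day 7, and the cholesterol list had a median of 0.27 and 1 DEG.

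The difference of the differences itself passed the same thresholds for 250 probes (1.22%), positive in 219 (1.07%) and negative in 31 (0.151%). The count was 84 without ASC-seeded replicates 1 and 2 of day 30, 164 without replicate 1 alone, 141 without ASC-seeded replicate 8 of day 7, and 143 and 122 without BAM-only replicates 6 and 7 of day 7. Of the 504 DEGs of day 30 it was passed by 23 higher and 15 lower probes. Among the 250 probes 190 were DEGs at day 7, and 171 of the 219 positive ones were lower DEGs at day 7. Fbn2 had a log2 difference of 1.72 at day 30 and of -0.84 at day 7, and the difference of these, 2.56, passed (adjusted p = 8.41e-04, limma). It also passed for Cyp3a9 (2.58), Aqp5 (2.25), Padi4 (2.15) and Lss (1.00), which were higher DEGs at day 30. Spmap2 was lower at both days, at -1.06 on day 30 and -2.84 on day 7, and the difference of 1.79 passed. Fmod and Plvap, an endothelial diaphragm protein, were not DEGs at day 30 but differed between the days, by 2.56 and 0.85. No call was made for Cldn3, Tspan1 or any urothelial list member.

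**Figure D5:**
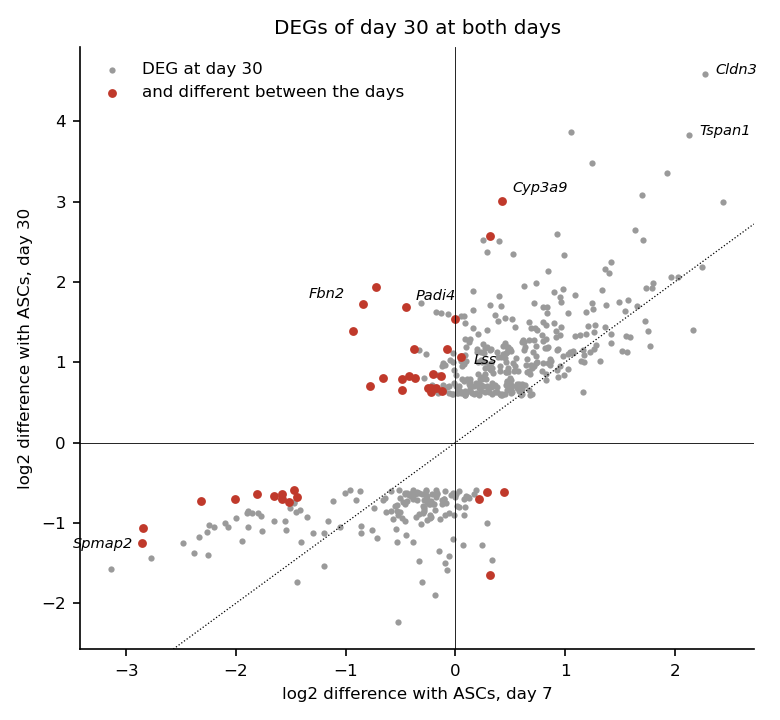
Log2 difference (BAM seeded with ASCs minus BAM only) at day 7 (x axis) and at day 30 (y axis) of the 504 DEG probes of day 30, with the line of equal values dotted and probes whose difference between the days passed the test in red. The 290 higher and 148 lower probes with the same sign at both days lie in the upper right and lower left.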

How the data were processed

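The authors deposited 1 Agilent Feature Extraction file (12.0.1.1, Cy3) per array, and the intensity used is the background-corrected processed signal of these deposited files, with no normalization between arrays. The deposited series matrix holds the same intensity values to fewer digits and served as an alternative. Values were taken as log2 minus the 75th percentile of the array over non-control spots. Control and outlier-flagged spots were left out, and spots of a probe averaged. Of 30367 gene probes, 20543 passed the background flag throughout at least 1 group of 8 and were tested, in a limma (3.58.1, R 4.3.3) fit of group means over all 64 arrays that was first tested on simulated data. The call thresholds were 0.01 for p after Benjamini-Hochberg adjustment and 1.5 for the fold, those of the study's analysis of variance. The number of arrays limits the precision. The p-values measure the spread between arrays within groups, pooled over all 64 arrays. With 1 array a rat, the spread between rats and that of the measurement are not separated. Spread between slides does not enter.

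Of the gene probes 18750 had 1 RefSeq symbol. Named genes were the 10 with the largest difference each way among DEGs well above background and unsaturated on all 16 arrays and called without ASC-seeded replicates 1 and 2, up to 3 each way with a bound, called members of 42 lists (at most 4 a list, otherwise the 2 of smallest p), and the 5 of these that differed most between day 30 and day 7. Other named list members and the secretory and hypoxia genes were chosen after their values were seen. The members and lists were chosen with earlier results of these data known. Alternatives covered filter, background, scaling, samples, weights, thresholds and left-out arrays, and 3 of them were added after seeing the data. Replicate numbers were not treated as pairs of animals, and whether they pair animals was not settled. The correlation of deviations was -0.24 to 0.33 over 8 pairs and above 0.1 in 3. For 3 ASC-seeded arrays the BAM-only array of the same number had the highest correlation. Days 90 and 180 entered only through the shared estimate of the spread. Results of some genes are not reported here.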

Additional observations from a re-analysis of the deposited data

Results flagged for a closer look

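Single arrays stood apart from the other 7 of their group, by Dixon's ratio above 0.526, in 18 of 210 groups of 8 levels looked at, where chance gives about 1 in 20. With ASCs, replicate 1 was apart for Zic2 (-2.35), Spmap2 (-1.68), Rph3a (-3.69), Aplnr (-2.31), Prx (-3.77), Ptch1 (-0.73) and Krtap10l1 (-2.81), in each case on the high side, and it is the array on which dim probes were bright. Replicate 8 was apart for Spdef (-1.70) and replicate 7 for Frzb (0.98). With BAM only, replicate 7 was apart for Zic2 (-1.46), S100a9 (1.32), Mzb1 (2.83), Erbb3 (-3.52), Pgk1 (5.24), Rps15 (6.10) and Krtap10-10l1 (-1.68), replicate 1 for Tm4sf20 (-2.73) and replicate 3 for Myog (-1.0). Among these Spdef and Pgk1 were low on the array named and the others high. The probe of Rps15 was saturated on all 16 arrays.

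The graft difference differed between day 30 and day 7 in limma's test of the difference itself for 8 genes named in the report. The difference of the log2 differences was 2.58 for Cyp3a9 (adjusted p = 0.00489), 2.56 for Fbn2 (8.41e-04), 2.56 for Fmod (0.00395), 2.25 for Aqp5 (0.00932), 2.15 for Padi4 (0.00737), 1.79 for Spmap2 (8.14e-04), 1.00 for Lss (0.00428) and 0.85 for Plvap (0.00317).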

How the results depend on the processing

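The 504 DEGs of day 30 became 781 (437 higher, 344 lower) with only the arrays of the days compared, 1530 (828 and 702) with array weights, 245 (135 and 110) with ASC-seeded replicates 1 and 2 left out, 1486 at an unadjusted p and 224 at a 2-fold threshold. Of the settings chosen after seeing the data, the arrays of the days compared without replicates 1 and 2 gave 782, and leaving out ASC-seeded replicates 1, 2, 4, 5 and 6 gave 83. Leaving out 1 array at a time gave 269 to 609. The count stayed within 1.5 times in the other settings, with 439 under quantile normalization, 546 under the percentile of detected probes and 485 with the replicate block. The 250 probes that differed between the days became 166 with quantile normalization, 852 with array weights, 84 without replicates 1 and 2, 1501 at an unadjusted p, 144 at a 2-fold threshold, 108 with 1 probe per gene, 402 without replicates 4, 5 and 6, 34 without all 5 arrays and 301 with the replicate block. Leaving out 1 array at a time gave 122 to 375. Of 44 called named genes 8 lost the call without replicates 1 and 2, 11 without replicates 4, 5 and 6 and 33 without all 5. The call was lost by 9 with normexp, 5 with quantile normalization and 1 with the block. None reversed under any alternative run, which is largely set by their choice as DEGs. The genes named for the largest differences were chosen among those called without replicates 1 and 2. The loss of 8 is therefore partly set by that choice and does not measure how DEGs in general held. Of all 504 DEGs, 221 were also DEGs without replicates 1 and 2. Among 49 named genes not called, Alas2 (-0.14) and Sbp (-0.33) reversed without all 5 arrays, from 1.05 and 3.73. The cause of these changes was not tested, except that fewer arrays entered where some were left out. Signal over background limits the dim probes, since on ASC-seeded replicate 1 the 5th percentile of the levels was -5.49 against -8.51 to -7.67 on the others.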
